A study of Mus musculus with 9 samples.

Results

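The 9 genes described here, Adipoq, Retn, Lep, Cfd, Plin1, Cidec, Fabp4, Lpl and Car3, are markers of fat cells, and their RNA was measured in the large intestine of mice. They were picked by symbol, through the Entrez Gene number of each row, with their levels on these arrays already known. Their levels and their differences between groups are therefore given as descriptions, and no p-value is given for them. All 9 had a row among 24570 named genes. Of these genes, 17199 had a mean log2 level over the arrays of at least 5.29, the 30th percentile, and were tested. This level filter kept 7 of the 9 marker genes in the fit over all genes, while Adipoq and Lep lay under it.

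Total RNA was hybridised to 9 Affymetrix Mouse Gene 2.0 ST arrays, which hold probes along the length of each gene. All mice were on a C57BL/6 background and carried a short hairpin RNA together with rtTA, the activator that switches the hairpin on when doxycycline is present. The DHX9-837 and DHX9-1271 lines each expressed 1 hairpin against Dhx9, the gene of an RNA and DNA helicase, and the control line expressed the hairpin FLuc.1309 against firefly luciferase, which mice lack. Each group had 3 arrays, and all mice, controls included, drank doxycycline at 1 mg/ml with 5% sucrose for 14 days from 4 weeks of age. The promoter that drives rtTA is not given in the sources used here, and nothing in them says whether the replicates of a group were separate animals. The p-values thus refer to the spread among these arrays, which may be technical, and with 3 arrays a group the precision of every value is limited.

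Fat cells store triglyceride in a single large droplet and release hormones and complement proteins into the blood. The gut wall itself holds few of them, but the mesenteric fat is attached along its outer side. In RNA from bulk tissue, fewer cells of a type and less RNA per cell cannot be told apart.

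Dhx9 had a mean log2 level of 8.20 ± 0.017 in DHX9-837 arrays and 8.22 ± 0.044 in DHX9-1271 arrays, against 9.24 ± 0.072 in control arrays (SD, n = 3 each). The levels of every hairpin array lay below those of every control array. Array medians ran from 6.24 to 6.28, and no arrays had identical columns. All 14 markers of large intestinal epithelium passed the level filter, as did all 10 of smooth muscle. Of the brown fat markers 4 of 10 lay under it, Ucp1 among them, and so did 4 of 10 for skeletal muscle and 4 of 9 for exocrine pancreas. Set at the 30th percentile, the filter has 30% of all named genes under it, so these shares alone do not show that a tissue was absent.

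Among the secreted products, Adipoq encodes adiponectin, a hormone made almost only by fat cells that raises insulin sensitivity. Its log2 level was 5.30, 5.83 and 6.08 in DHX9-837 arrays, 4.50, 4.16 and 4.82 in DHX9-1271 arrays, and 4.54, 5.35 and 4.89 in control arrays. The hairpin groups did not overlap, while each of them overlapped with the controls. The DHX9-837 mean was 1.25 (SE 0.26) above the DHX9-1271 mean on the log2 scale, or 2.38-fold. Against control the difference was 0.81 for DHX9-837 and -0.43 for DHX9-1271, each with an SE of 0.26. These levels lay below the filter, in the range where array background takes a larger share of the signal.

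Retn encodes resistin, a hormone that in mice is made mainly by white fat and lowers insulin sensitivity. It measured 7.80, 8.09 and 8.07 in DHX9-837 arrays, 7.01, 6.73 and 7.09 in DHX9-1271 arrays, and 7.22, 7.98 and 7.46 in control arrays. All DHX9-1271 arrays were below all control arrays, and DHX9-837 overlapped with control through the high second control array. On the log2 scale DHX9-837 was 1.04 (SE 0.19) above DHX9-1271, 2.06-fold. The difference from control was 0.43 for DHX9-837 and -0.61 for DHX9-1271.

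Lep encodes leptin, the hormone by which fat stores signal to the brain. Its log2 level was 5.30, 5.25 and 5.55 in DHX9-837 arrays, 4.68, 4.38 and 4.89 in DHX9-1271 arrays, and 4.57, 5.44 and 5.00 in control arrays. The controls spanned almost the whole range of both hairpin groups, which did not overlap with each other. DHX9-837 stood 0.72 (SE 0.21) above DHX9-1271, and the differences from control were 0.37 for DHX9-837 and -0.35 for DHX9-1271.

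Cfd encodes adipsin, also called complement factor D, the protease that starts the alternative complement pathway. DHX9-837 arrays gave 8.14, 8.61 and 8.50, DHX9-1271 arrays 7.73, 7.26 and 7.57, and control arrays 7.57, 8.02 and 7.76. All DHX9-837 arrays exceeded all others, and DHX9-1271 overlapped with control. The DHX9-837 mean was 0.63 above control and 0.89 above DHX9-1271, each with an SE of 0.17, and the DHX9-1271 mean was 0.26 below control.

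Promoter sequences were available for 6 of the 9 genes, not for Fabp4, Lpl or Car3. Letters of 4 kinds were searched on both strands of the 300 bases that run from 250 before to 50 after the start. They were TTGCNNAA, a C/EBP-type site that 10.8% of 32851 RefSeq promoters of this length hold, AGGNCA repeated after 1 base, a PPAR-type site held by 0.381%, CCAAT, held by 37.4%, and TATAA, held by 24.9%. C/EBP and PPAR factors drive fat cell differentiation. The 3 hormone promoters and that of Plin1, the droplet gene with the smallest difference between hairpins, are shown to set promoters of genes with like and unlike profiles side by side, with matched letters in capitals. They are from RefSeq, GRCm38.p6, at chr16:23146286-23146585 (Adipoq, plus strand), chr8:3655520-3655819 (Retn, plus strand), chr6:29059971-29060270 (Lep, plus strand) and chr7:79732727-79733026 (Plin1, minus strand).
Adipoq: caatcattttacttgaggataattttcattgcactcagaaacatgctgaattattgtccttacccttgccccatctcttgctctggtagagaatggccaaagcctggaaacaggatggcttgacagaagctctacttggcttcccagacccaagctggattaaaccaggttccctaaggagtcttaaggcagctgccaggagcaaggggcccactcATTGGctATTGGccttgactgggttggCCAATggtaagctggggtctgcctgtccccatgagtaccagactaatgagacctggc
Retn: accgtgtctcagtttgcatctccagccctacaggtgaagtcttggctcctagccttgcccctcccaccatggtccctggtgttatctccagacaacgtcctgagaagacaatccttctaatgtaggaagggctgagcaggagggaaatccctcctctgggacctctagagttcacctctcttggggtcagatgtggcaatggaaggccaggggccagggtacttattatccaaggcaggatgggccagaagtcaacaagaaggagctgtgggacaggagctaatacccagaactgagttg
Lep: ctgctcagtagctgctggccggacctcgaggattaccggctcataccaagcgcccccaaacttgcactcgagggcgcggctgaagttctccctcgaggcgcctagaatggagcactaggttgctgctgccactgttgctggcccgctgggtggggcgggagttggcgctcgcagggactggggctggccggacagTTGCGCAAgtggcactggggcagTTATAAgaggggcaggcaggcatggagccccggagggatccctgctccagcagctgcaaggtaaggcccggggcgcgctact
Plin1: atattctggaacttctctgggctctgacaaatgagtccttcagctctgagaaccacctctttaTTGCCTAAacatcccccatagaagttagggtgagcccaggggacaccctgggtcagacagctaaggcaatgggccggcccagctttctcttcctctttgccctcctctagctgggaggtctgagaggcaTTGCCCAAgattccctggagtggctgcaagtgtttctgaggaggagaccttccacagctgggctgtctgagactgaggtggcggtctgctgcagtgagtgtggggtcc
Adipoq held CCAAT letters at 3 places, the first bases at -34, -27 and -7 relative to the start. Lep held a C/EBP-type match at -55 and a TATAA run, which overlaps its own reverse form, at -32 and -31. Plin1 held C/EBP-type matches at -187 and -58, and Retn and Cfd held none of the letters in this window. Of 2 promoters listed for Cidec, the second held a C/EBP-type match at -198 and the first held none of the letters. No PPAR-type match was in the promoters of these 6 genes. A match is a description of the letters alone.

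Of the droplet proteins, Plin1 encodes perilipin, which coats the droplet and gates its breakdown. It measured 6.45, 6.34 and 6.43 in DHX9-837 arrays, 6.15, 6.13 and 6.22 in DHX9-1271 arrays, and 6.40, 6.44 and 6.27 in control arrays. DHX9-1271 lay below both other groups, which overlapped. The differences were small: 0.24 (SE 0.062) between DHX9-837 and DHX9-1271, and 0.035 for DHX9-837 and -0.20 for DHX9-1271 against control. Without the third control array the difference of DHX9-837 from control was -0.013.

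Cidec, whose protein fuses small droplets into large ones, gave log2 levels of 8.73, 8.87 and 8.94 in DHX9-837 arrays. The DHX9-1271 arrays had 8.65, 8.36 and 8.63, and the control arrays 8.29, 8.64 and 8.38. DHX9-837 was above every other array, and DHX9-1271 and control overlapped. Its means exceeded control by 0.41 for DHX9-837 and 0.11 for DHX9-1271, each with an SE of 0.11, and DHX9-837 exceeded DHX9-1271 by 0.30.

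Of the lipid-handling genes, Fabp4 encodes the fatty acid carrier of the fat cell cytoplasm, which macrophages and capillary endothelium also make. It measured 8.76, 9.04 and 8.93 in DHX9-837 arrays, 8.13, 7.83 and 8.13 in DHX9-1271 arrays, and 7.83, 8.50 and 8.29 in control arrays. DHX9-837 did not overlap with either other group. Its mean was 0.70 above control and 0.88 above DHX9-1271, each with an SE of 0.17, and DHX9-1271 was 0.18 below control.

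Lpl encodes lipoprotein lipase, the enzyme that frees fatty acids from blood lipoproteins at the capillary wall. DHX9-837 arrays had 8.56, 8.71 and 8.61, DHX9-1271 arrays 8.19, 8.12 and 8.19, and control arrays 7.58, 7.96 and 7.90. The 3 groups did not overlap, and both hairpin groups were above control. The difference from control was 0.82 for DHX9-837 and 0.35 for DHX9-1271, and DHX9-837 was 0.46 above DHX9-1271, each with an SE of 0.096. Lpl was the only one of the 9 genes for which all arrays of both hairpins lay above all control arrays.

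Markers of macrophages and endothelium, the other cells named above for Fabp4, moved with the hairpins. The mean log2 level of 9 macrophage markers ran from 7.77 to 7.83 in DHX9-837 arrays and from 7.58 to 7.68 in DHX9-1271 arrays, against 7.40 to 7.46 in control arrays. By limma 5 of the 9 rose for DHX9-837, where 8.79% of all tested genes did, and 2 for DHX9-1271, where 2.87% did, and none fell. Of those 2, the complement gene C1qc lost its call without DHX9-1271 replicate 2 (adjusted p = 0.0688) or 3 (adjusted p = 0.0716). The growth factor receptor Csf1r, which macrophages need to survive, rose by 0.58 (SE 0.053, limma adjusted p = 0.000346) in DHX9-837 arrays and by 0.38 (adjusted p = 0.00968) in DHX9-1271 arrays. For 12 endothelial markers the mean ran from 7.35 to 7.40 in DHX9-837 arrays and from 7.39 to 7.45 in DHX9-1271 arrays, against 7.19 to 7.25 in control arrays. Here 4 rose for DHX9-837 and 5 for DHX9-1271, with none down, beside the same shares of all tested genes. All 5 calls for DHX9-1271 (Cdh5, Emcn, Eng, Pecam1 and Prox1) were lost without DHX9-1271 replicate 2, and again without replicate 3, with adjusted p up to 0.172. Of the 4 for DHX9-837, Emcn and Eng kept their calls under all 18 alternatives, Cdh5 lost its call without DHX9-837 replicate 2 or control replicate 1, and Lyve1 lost its call in 9 of 18 (among them without any 1 DHX9-837 array, DHX9-1271 replicate 3, or control replicate 1 or 3). Between the hairpins limma called none of the markers on either list at an adjusted p under 0.05, while 4 macrophage and 2 endothelial markers had an unadjusted p under 0.05. The part of macrophages in the levels of Fabp4 and Lpl, and of endothelium in that of Fabp4, was not tested.

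Car3 encodes carbonic anhydrase III, an abundant enzyme of fat cells and also of skeletal muscle fibres. Its log2 level was 9.34, 9.76 and 9.56 in DHX9-837 arrays, 8.12, 7.58 and 7.87 in DHX9-1271 arrays, and 8.43, 9.31 and 8.87 in control arrays. No 2 groups overlapped. DHX9-837 was 1.70 (SE 0.22) above DHX9-1271, or 3.24-fold, the widest gap between hairpins among the 9 genes. Against control the difference was 0.69 for DHX9-837 and -1.01 for DHX9-1271, so that the DHX9-1271 mean was 49.6% of the control mean. Of the skeletal muscle markers, 6 of 10 passed the filter and limma called none in any comparison, with at most 1 at an unadjusted p under 0.05. The muscle actin Acta1 was 0.60 (SE 0.20) higher in DHX9-837 than in DHX9-1271 arrays, with a limma adjusted p of 0.205. Its difference from control was 0.50 for DHX9-837 and -0.10 for DHX9-1271. The part of muscle fibres in the Car3 levels was not tested.

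**Figure D1:**
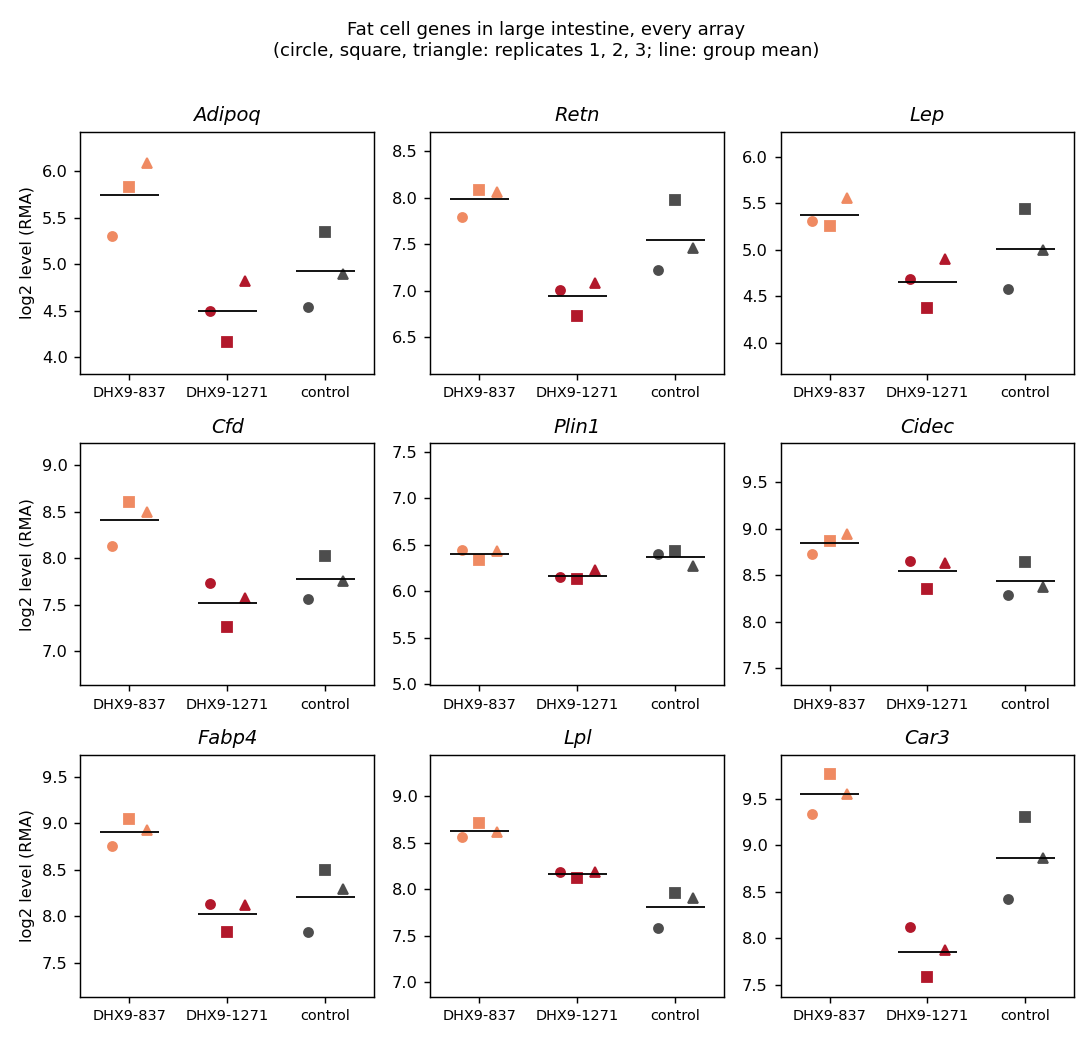
Log2 levels of the 9 marker genes (vertical axes, all of the same length) in each array of DHX9-837, DHX9-1271 and control; circles, squares and triangles are replicates 1, 2 and 3 and lines are group means. For all 9 genes the DHX9-837 arrays lie above the DHX9-1271 arrays, and control arrays spread most for Car3, Lep and Adipoq.

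Over the 9 genes, DHX9-837 was above control for 9 of 9 and DHX9-1271 below control for 7 of 9, with Cidec and Lpl the exceptions. The median difference from control was 0.63 for DHX9-837 and -0.26 for DHX9-1271, beside -0.015 and -0.011 over all named genes. For DHX9-837, 5 genes lay above control without overlap (Cfd, Cidec, Fabp4, Lpl and Car3) and none below, where 12.6% of all named genes lay above in that way and 12.1% below. For DHX9-1271, Retn, Plin1 and Car3 lay below control without overlap and Lpl above, where 9.39% of all genes lay below and 11.4% above. Between the hairpins, all 9 genes were higher in DHX9-837 without overlap, beside 7.83% of all genes higher and 9.77% lower in that way, with a median difference of 0.88 beside -0.00064 over all genes. With both hairpins averaged the median difference from control was 0.19, and it was -0.0049 without the first control array. Only Lpl then lay above control without overlap, beside 7.72% of all genes above and 5.65% below. The comparisons with control share the same 3 control arrays.

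**Figure D2:**
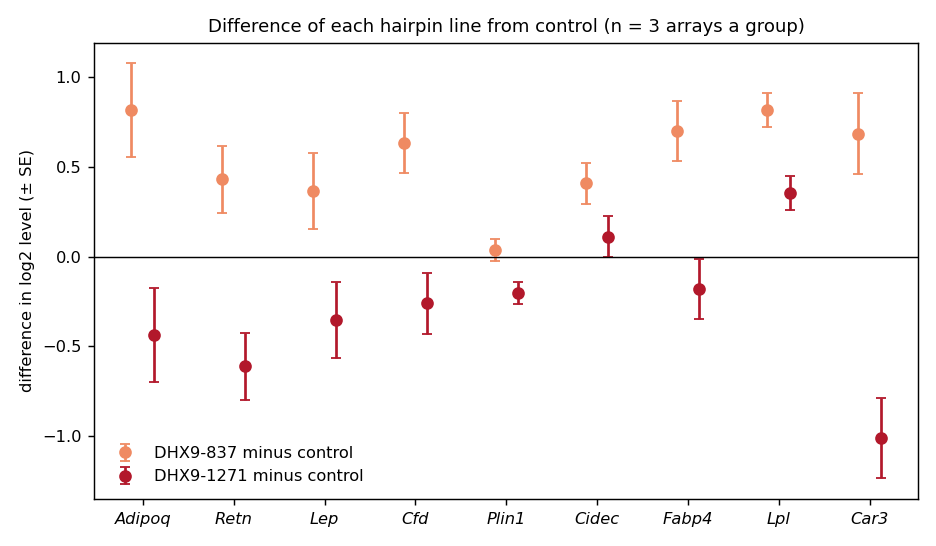
Difference in log2 level (vertical axis, with SE bars from the linear model) of DHX9-837 and of DHX9-1271 from control for each marker gene, with 3 arrays a group. DHX9-837 ranges from 0.035 (Plin1) to 0.82 (Lpl), and DHX9-1271 from -1.01 (Car3) to 0.35 (Lpl).

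The 7 marker genes past the filter were rows of the fit over all tested genes, so some count among its calls at an adjusted p under 0.05. The genes were chosen with these contrasts known, so these counts are no test of them and nothing is read from them. For DHX9-837 against control 4 were among the higher calls and none among the lower, where 8.79% of tested genes were higher and 7.03% lower. For DHX9-1271 none was among the higher calls and 1 among the lower, where 2.87% were higher and 1.6% lower. For both hairpins together 1 was among the higher calls, where 8.2% were higher and 5.43% lower. Between DHX9-837 and DHX9-1271, 5 were among the higher calls, where 0.698% were higher and 1.21% lower.

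The 9 genes also varied together from array to array. The second DHX9-1271 array was the lowest of its group for 9 of 9 genes and the lowest of all arrays for 7, and the first control array was the lowest for the other two, Cidec and Lpl. Among the controls the second array was the highest for 9 of 9 genes and the first array the lowest for 8. The mean deviation from each gene's mean over the 9 arrays was 0.29, 0.53 and 0.55 in DHX9-837 arrays, -0.29, -0.58 and -0.26 in DHX9-1271 arrays, and -0.37, 0.21 and -0.10 in control arrays. The second control array thus lay nearer to the DHX9-837 arrays and the first control array nearer to the DHX9-1271 arrays.

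**Figure D3:**
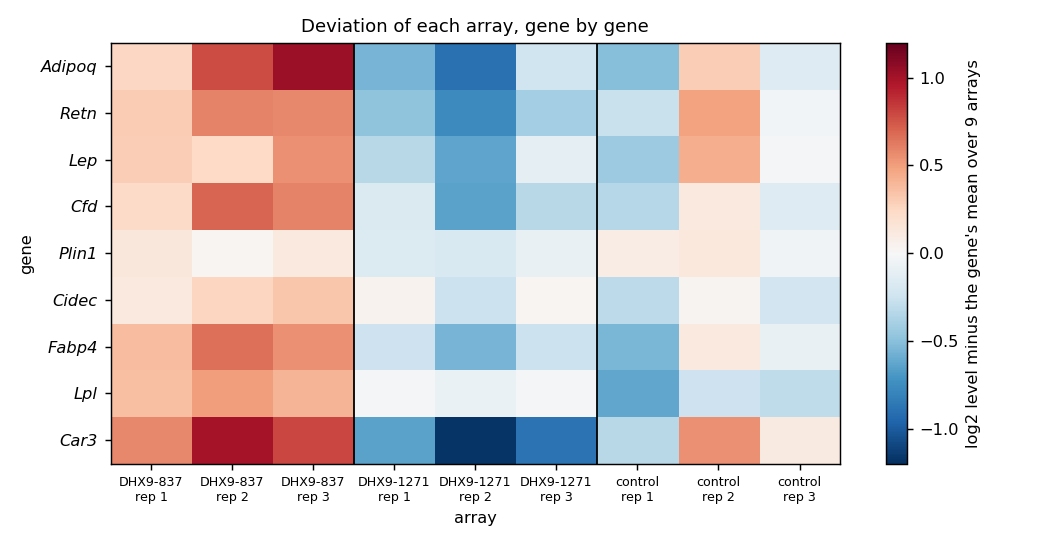
Log2 level minus the gene's mean over the 9 arrays (colour, red above and blue below) for each marker gene (rows) in each array (columns, DHX9-837, DHX9-1271 and control). The second DHX9-1271 array is below the mean for all 9 genes, and the second control array is above it for all but Lpl.

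Replicates of 1 group differed more for most of these genes than is usual on these arrays. The pooled SD within groups was 0.38 for Adipoq, above that of 97.8% of named genes, and 0.32 for Car3, above 96.6%. Lep, Retn, Cfd and Fabp4 stood above 96.1%, 94.2%, 92.2% and 91.9%. Cidec and Lpl stood above 75.7% and 63.8%, and Plin1, with an SD of 0.067, above 22.9%. From the lowest to the highest array Car3 spanned 4.53-fold and Plin1 1.25-fold.

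Correlations of log2 levels over the 9 arrays are given as a description, since the arrays share their groups and the genes were chosen for this behaviour. Over 36 pairs of marker genes Pearson's r ran from 0.147 (Plin1 and Lpl) to 0.982 (Retn and Car3), with a median of 0.851. After each group's mean was taken off, r ran from -0.232 (Plin1 and Lpl) to 0.960 (Fabp4 and Car3), with a median of 0.847, and 33 of 36 pairs were above 0. The 8 pairs with Plin1 had the lowest within-group values, up to 0.423 with Lep and near 0 with Car3 (0.0046), Cfd and Fabp4.

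Other genes used in fat cells were called in both directions. On 5 lists of 56 genes, 55 passed the filter. For DHX9-837 against control 3 rose and 8 fell, where 15.8% of all tested genes were called, and for DHX9-1271 1 rose and 4 fell, where 4.47% were, or 8 were called without control replicate 2. Between the hairpins 1 was higher and 2 were lower in DHX9-837, where 1.91% were. That count of 3 was 0 without DHX9-1271 replicate 3, at most 2 without any other single hairpin array, and 6 without control replicate 1 or 2. The median difference was 0.026 for DHX9-837 and -0.038 for DHX9-1271 against control, and 0.022 between the hairpins. The lists were not limited to genes made only by fat cells, and the part of other cells in their levels was not tested.

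Of the 6 tested transcription factors of fat cell differentiation limma called none in any comparison, with 0 to 2 at an unadjusted p under 0.05. Pparg, the master regulator of fat cell formation, measured 9.44, 9.58 and 9.38 in DHX9-837 arrays, 9.36, 9.59 and 9.51 in DHX9-1271 arrays, and 9.45, 9.21 and 9.48 in control arrays. Its DHX9-837 minus DHX9-1271 difference was -0.020, with a limma adjusted p of 0.951. Pparg is also made by the large intestinal epithelium.

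On a list of 15 genes, most of them of fatty acid and triglyceride synthesis, calls went both ways. The only gene of the list called higher for DHX9-1271 was the retinol saturase Retsat. Between the hairpins 1 was called higher and 2 lower in DHX9-837. By limma 11 had an unadjusted p under 0.05, a count given without the share over all tested genes. The median difference of this list was 0.24, from -0.82 to 1.29, beside -0.00064 over all genes. Pck1, an enzyme early on a path to glycerol phosphate for triglyceride, fell by 1.56 (SE 0.10, limma adjusted p = 6.57e-05) in DHX9-837 arrays and by 0.74 (adjusted p = 0.00829) in DHX9-1271 arrays. It was lower in DHX9-837 than in DHX9-1271, by a difference of -0.82 (adjusted p = 0.00992, and 0.0582 without the third DHX9-1271 array). Me1, which supplies NADPH for fatty acid synthesis, rose by 0.99 (adjusted p = 0.00306) in DHX9-837 arrays, and for DHX9-1271 its difference was 0.30 (adjusted p = 0.283). Retsat, a retinol saturase, rose by 0.32 (adjusted p = 0.0176) in DHX9-837 arrays, a call lost without DHX9-837 replicate 2 or control replicate 1 (adjusted p up to 0.0600 over the alternatives run), and by 0.76 (adjusted p = 0.00154) in DHX9-1271 arrays. Agpat2, an enzyme of triglyceride assembly, fell by 0.28 (adjusted p = 0.0101) in DHX9-837 arrays and by 0.52 (adjusted p = 0.00298) in DHX9-1271 arrays. Dgat2, which adds the last fatty acid, fell by 0.70 (adjusted p = 0.00647) in DHX9-1271 arrays, and in DHX9-837 arrays its difference was -0.24 (adjusted p = 0.100).

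A further 3 genes of this list had gaps between the hairpins as wide as those of several marker genes, without passing the test. Thrsp, a thyroid hormone target of fat synthesis, was 1.29 (SE 0.27) higher in DHX9-837 than in DHX9-1271 arrays, with a limma adjusted p of 0.053. Gpd1, which makes glycerol phosphate, was 1.16 (SE 0.26) higher, with an adjusted p of 0.063. Scd1, the desaturase that makes oleic acid, was 0.80 (SE 0.17) higher, with an adjusted p of 0.055. The arrays of the 2 hairpins did not overlap for any of these 3 genes.

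Among 13 droplet and lipolysis genes none rose. Ces1d, a carboxylesterase that breaks down triglyceride, fell by 1.00 (SE 0.069, limma adjusted p = 9.48e-05) in DHX9-837 arrays and by 0.84 (adjusted p = 0.000737) in DHX9-1271 arrays. The lipases Lipe and Pnpla2 fell in DHX9-837 arrays, by 0.35 (adjusted p = 0.00766) and 0.26 (adjusted p = 0.00806). Plin4, a perilipin of fat cells and the nearest relative of Plin1 on the list, was not called, with a DHX9-837 minus DHX9-1271 difference of -0.037 (adjusted p = 0.836). Among 11 genes of uptake, the fatty acid transporter Cd36 rose by 0.49 (adjusted p = 0.0175) in DHX9-837 arrays, a call lost without the third DHX9-837 array (adjusted p = 0.0601), and the acyl-CoA synthetase Acsl1 fell by 0.36 (adjusted p = 0.00896). Of 10 other secreted products limma called none for either hairpin alone, with 2 at an unadjusted p under 0.05 for each, and the retinol carrier Rbp4 was not called.

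**Figure D4:**
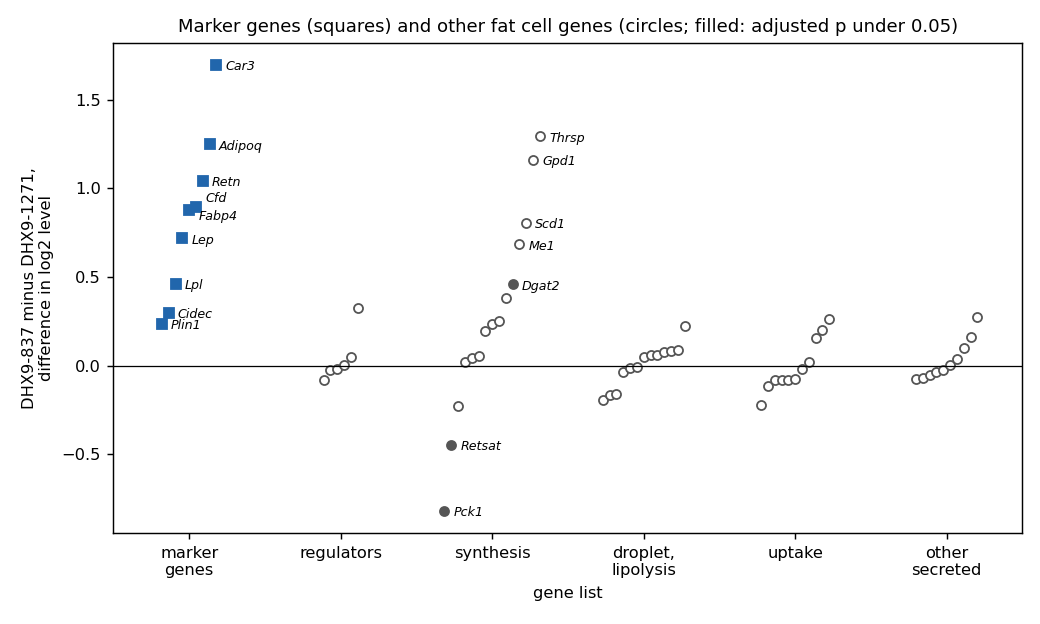
Difference in log2 level, DHX9-837 minus DHX9-1271 (vertical axis), for the 9 marker genes (squares, shown without calls) and for 55 other fat cell genes by list (circles, filled where the limma adjusted p is under 0.05). The marker genes run from 0.24 to 1.70, and most circles lie near 0, apart from genes of the synthesis list.

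The partners of the secreted products were measured beside them. The leptin receptor Lepr and the adiponectin receptors Adipor1 and Adipor2 were not called in any comparison. C3, the complement protein cleaved after adipsin acts, rose by 0.78 (SE 0.13, limma adjusted p = 0.00599) in DHX9-837 arrays, and Cfb, the substrate of adipsin, fell by 0.56 (SE 0.083, adjusted p = 0.00306). For DHX9-1271, C3 rose by 0.67 (adjusted p = 0.0309), a call lost without DHX9-1271 replicate 2 or 3 or control replicate 1 or 3, each left out alone, with an adjusted p of up to 0.101 over the alternatives run, and Cfb differed by -0.33 (adjusted p = 0.0605).

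Of 9 tested partners of lipoprotein lipase, 4 rose and 1 fell for DHX9-837, where 8.79% of all tested genes rose and 7.03% fell. Angptl4, a secreted inhibitor of the enzyme, rose by 1.32 (SE 0.21, limma adjusted p = 0.00442). Apoc2, its cofactor on lipoproteins, rose by 0.75 (adjusted p = 0.00383), and Angptl8, another regulator, by 0.24 (adjusted p = 0.00739). The lipoprotein receptor Vldlr rose by 0.48 (adjusted p = 0.00263), and the lipase Lipe, on this list too, fell as given above. For DHX9-1271 Vldlr rose by 0.44 (adjusted p = 0.0138), with adjusted p up to 0.0665 without the second or the third DHX9-1271 array. Gpihbp1, which anchors the enzyme to capillaries, was not called and differed by -0.036 for DHX9-837 (adjusted p = 0.883).

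Of 16 tested relatives of the marker genes, 1 fell for each hairpin and none rose. Over all tested genes 7.03% fell for DHX9-837 and 1.6% for DHX9-1271. That gene was Cideb, the liver and gut relative of Cidec. It fell by 0.43 (SE 0.049, limma adjusted p = 0.000832) in DHX9-837 arrays and by 0.34 (adjusted p = 0.00968) in DHX9-1271 arrays. The resistin-like gene Retnlb, made by goblet cells, measured 10.05, 10.24 and 9.92 in DHX9-837 arrays, 10.79, 10.50 and 10.69 in DHX9-1271 arrays, and 9.75, 11.21 and 10.49 in control arrays. It was not called, and its DHX9-837 minus DHX9-1271 difference of -0.59 (adjusted p = 0.426) had the opposite sign to that of Retn. Car2, a carbonic anhydrase of the epithelium, differed between the hairpins by 0.062 (adjusted p = 0.680).

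Fabp6, the bile acid carrier of the ileum, varied more than any marker gene. It measured 9.01, 5.05 and 10.45 in DHX9-837 arrays, 6.29, 4.62 and 5.96 in DHX9-1271 arrays, and 5.22, 9.05 and 7.69 in control arrays. The second DHX9-1271 array and the first control array, low for the marker genes, were also low for Fabp6, and the second control array was high for both, while the second DHX9-837 array was high for the marker genes and low for Fabp6. The pancreas marker Clps measured 7.23, 5.90 and 8.42 in DHX9-837 arrays and 6.66, 5.83 and 6.56 in DHX9-1271 arrays. In control arrays Clps measured 6.20, 7.50 and 6.66. Limma called none of the 5 tested pancreas markers in any comparison. What these arrays share was not tested.

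Smooth muscle, the main tissue of the outer gut wall, had lower marker levels in DHX9-837 than in DHX9-1271 arrays. All 10 of its markers were lower, with a median difference of -0.21 and a range of -0.34 to -0.029, beside -0.00064 over all genes. The mean of the list ran from 10.19 to 10.38 in DHX9-837 arrays and from 10.44 to 10.57 in DHX9-1271 arrays, against 10.35 to 10.51 in control arrays. By limma 1 of the 10 was called between the hairpins, Synm, and 5 had an unadjusted p under 0.05. The call of Synm (-0.34, adjusted p = 0.049) was lost without any 1 of the 9 arrays, with adjusted p up to 0.153. The part of smooth muscle in the marker gene levels was not tested.

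Markers of other cells that lie beside fat were compared too. Of 10 progenitor markers limma called none between the hairpins, with 1 at an unadjusted p under 0.05. In DHX9-837 against control 3 of the 10 rose, none fell and 7 were not called, where 8.79% of all tested genes rose and 7.03% fell. Those 3 were the growth factor receptors Pdgfra and Pdgfrb and the surface protein Ly6a, and differences on the list ran from -0.30 to 0.44. Ly6a rose by 0.44 (limma adjusted p = 0.0357). Its call was lost without any 1 of DHX9-837 replicates 1 and 2, DHX9-1271 replicates 1 and 3 and control replicates 2 and 3. The adjusted p of Ly6a was up to 0.109 over the alternatives run. Muc16, a mucin of the serosal lining, fell by 0.95 (SE 0.13, limma adjusted p = 0.00196) in DHX9-837 arrays, while 1 of 8 tested serosal markers rose, Krt19, which epithelium also makes (0.30, adjusted p = 0.00778). The mean of the serosal list ran from 6.49 to 6.55 in DHX9-837 arrays and from 6.57 to 6.64 in DHX9-1271 arrays, against 6.58 to 6.64 in control arrays. For 10 B cell markers it ran from 8.38 to 8.74 in DHX9-837 arrays and from 8.27 to 8.81 in DHX9-1271 arrays, against 8.03 to 8.13 in control arrays. Of the 14 epithelial markers 1 rose and 2 fell for DHX9-837, where 8.79% of all tested genes rose and 7.03% fell. The chloride exchanger Slc26a3 fell by 0.63 (limma adjusted p = 0.000308), and Aqp8 fell too. Krt8 rose, a call lost in 12 of 18 alternatives. The other 11 were not called, and the median difference of the list was -0.027. The part of these cells in the marker gene levels was not tested.

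Genes whose levels over the arrays were most like those of the marker genes were sought among 534 tested genes with an SD over the arrays of at least 0.3. The measure was Pearson's r over the 9 arrays with the mean profile of the 7 marker genes that passed the filter, as a description. Scd1 came first with r = 0.971, and r was 0.904 on deviations from group means and 0.979 without the 2 arrays farthest from the median of the profile. Gpd1 followed with r = 0.950, then the sodium-proton exchanger Slc9a3 (0.934), the ephrin receptor Epha2 (0.916) and the immediate early gene Egr1 (0.907), the 5 genes above 0.9. The remaining genes of the first 12 were Akr1c18, Thrsp, Ms4a10, Bmp8b, Fosl1, Sst and Mogat2, with r between 0.863 and 0.889. Scd1, Gpd1 and Thrsp, 3 of the 12, are on the fat synthesis list.

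Scd1 measured 9.73, 9.85 and 10.11 in DHX9-837 arrays, 9.28, 8.79 and 9.21 in DHX9-1271 arrays, and 9.13, 9.68 and 9.39 in control arrays. Its low arrays were again the second DHX9-1271 array and the first control array. When the likeness was measured on deviations from group means alone, the first 12 genes were Alox5, H4c9, Ereg, Oxct1, Tomm40, Gtse1, Slc3a1, Atf7ip2, Ska2, Hbegf, Me1 and Scd1, with r from 0.904 to 0.959. Only Scd1 was in both rankings.

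**Figure D5:**
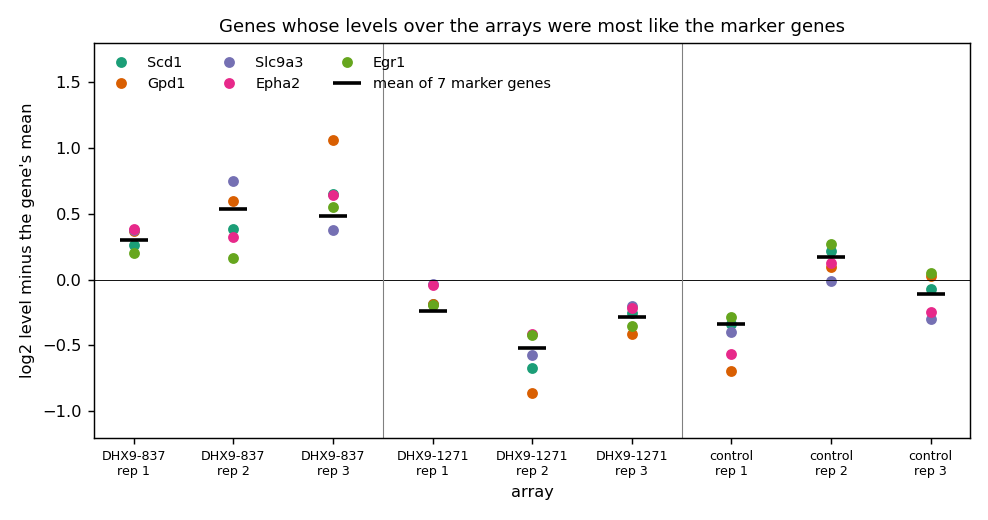
Log2 level minus the gene's mean over the arrays (vertical axis) in each array for the 5 genes with r above 0.9 (coloured points) and the mean of the 7 marker genes past the level filter (black bars). Points and bars are high in DHX9-837 arrays and low in DHX9-1271 arrays, and among the control arrays they are lowest in the first array.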

How the data were processed

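Levels were measured on 9 arrays, 3 each of DHX9-837, DHX9-1271 and control, grouped and numbered by their titles. Per the submitters' processing notes, the authors used R 3.1.1, oligo 1.30.0 and RMA, and deposited log2 levels. RMA normalizes by quantiles, so a shift of most genes one way would not be seen. The probe set definition is not stated there. Row names were Entrez Gene numbers. The probe table named 24015 of 24973 rows and RefSeq, by that number, named 559 more, Cfd among them. The brightest row was kept per symbol, which dropped 4.

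Group means of all 9 arrays were fitted with limma 3.58.1 (R 4.3.3) and compared in 4 contrasts by moderated statistics (eBayes), with Benjamini-Hochberg adjustment over the 17199 genes past the level filter, called at an adjusted p under 0.05, two-sided. SEs of marker genes came from the same model without the filter. On simulated data with 200 changed genes the fit called 80% of genes changed 1.5-fold and 98% of those changed 2-fold for DHX9-837, with 3.78% of calls false, and 76% and 97% for DHX9-1271, with 4.95% false. The simulated noise was independent between genes, and the changed genes were picked at random. These rates therefore do not describe genes that vary together or well beyond the median residual SD of 0.091. The marker genes and the 20 other lists, with 219 genes, were chosen with earlier results of these data known. From each list the genes named were called in any contrast, at most 6 by smallest p, or the 2 brightest where none was. Likeness named the 12 genes of highest r. Counts of list genes at an unadjusted p under 0.05 are given without the share over all tested genes, so they are descriptions only. Ucp1, Plin4, Rbp4, Lepr, Adipor1, Adipor2, Gpihbp1, Retnlb, Car2 and Fabp6 fall outside this rule and were named with their values seen. Same-numbered arrays of different groups correlated at -0.377 to 0.268 in their deviations from group means, and 2 of 9 arrays correlated best with their own number, so the numbers were not taken as pairs. Alternatives covered the filter, scaling, moderation, array weights, the arrays compared, the replicate number as a block and each array left out. Python 3.11.15 and matplotlib 3.10.9 served for tables and figures.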

Additional observations from a re-analysis of the deposited data

Results flagged for a closer look

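For 6 marker genes every array of DHX9-837 lay above the control mean and every array of DHX9-1271 below it. The share of all named genes that did so was not counted, so nothing is read from this number. Of the 6, only Car3 had no overlap with the control arrays for both hairpins, and Adipoq and Lep overlapped with them for both. The differences, DHX9-837 minus DHX9-1271 in log2 level, were 1.70 for Car3, 1.25 for Adipoq, 1.04 for Retn, 0.89 for Cfd, 0.88 for Fabp4 and 0.72 for Lep. No p-value is given for these differences, and the difference between the hairpins was not tested on values apart from those that chose the genes.

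For 8 genes of other lists limma called a difference between the hairpins, DHX9-837 minus DHX9-1271. Among genes used in fat cells, though not in them alone, it was -0.82 for Pck1, -0.45 for Retsat and 0.46 for Dgat2. It was -0.77 for Muc16 of the serosal lining, -0.34 for Synm of smooth muscle and -0.44 for the enteric neuropeptide Vip. Among epithelial transport genes it was -0.36 for Slc26a3 and -0.67 for Aqp8. Each of these 8 calls was lost when at least 1 single array was left out, with adjusted p up to 0.153 for Synm over the alternatives.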

How the results depend on the processing

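Median differences of the marker genes kept their direction under every setting that can move group means, apart from both hairpins together. The filter, moderation, block and restriction to the arrays compared leave group means as they are, so no change could show there. The same holds for leaving out an array of a group not compared. Leaving out single arrays gave 0.47 to 0.77 for DHX9-837, -0.37 to -0.14 for DHX9-1271, 0.76 to 0.96 between the hairpins, and -0.0049 to 0.31 for both together. The sign of a single marker gene changed in 9 of 609 fits, a total that includes the fits in which it could not change. Counts of all called genes for DHX9-1271 (main count 768) were 420 with no filter, 345 with only the arrays compared, 418 with the replicate block and 148 to 729 with single arrays left out. For DHX9-837 (2721) they were 1738 with only the arrays compared and 1919 to 2630 with an array left out, and for both together (2344) 1422 to 2156. Between the hairpins (328) they were 146 with no filter, 508 with a filter at the median gene, 574 with trend and robust moderation, 752 with array weights, 174 with the replicate block and 32 to 375 with an array left out. Other fat cell genes called between the hairpins (3) numbered 8 with the median filter, 7 with cyclic loess, 6 with trend and robust moderation, 9 with array weights, 1 with the replicate block and 0 to 6 with an array left out. Of these, 6 were higher and 2 lower in DHX9-837 with the median filter, and 5 and 2 with cyclic loess. The counts were 3 and 3 with trend and robust moderation, and 6 and 3 with array weights. With an array left out the other fat cell genes called numbered 5 to 8 for DHX9-1271 (5), 9 to 14 for DHX9-837 (11) and 7 to 12 for both together (13). Of 2173 fits of single list genes 382 lost the call, 280 of them with an array left out, and 0 reversed. The cause was not tested. Where an array was left out, the arm kept 2 arrays and pooled the spread. The setting with only the arrays compared gives no value for both together.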

Other observations

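Genes of fatty acid oxidation were called in both directions. Pdk4, the kinase that turns cells from glucose to fat as fuel, rose by 0.74 (limma adjusted p = 0.00236) in DHX9-837 arrays and by 1.07 (adjusted p = 0.00211) in DHX9-1271 arrays. Slc25a20, the carnitine carrier of mitochondria, fell by 0.83 (adjusted p = 0.000505) in DHX9-837 arrays. Of 9 tested genes of this list, 1 rose and 4 fell for DHX9-837, where 8.79% of all tested genes rose and 7.03% fell. For DHX9-1271 1 rose and 3 fell, where 2.87% rose and 1.6% fell. Between the hairpins limma called none, with 6 at an unadjusted p under 0.05.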
